A study of Mus musculus with 12 samples.

Results

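R3hdml (NCBI Gene 100043899, transcript NM_001099331) and Igfn1 (226438, NM_177642) are 2 of the 16288 genes listed in RNA-seq tables of mouse C2C12 cells, an immortalized myoblast line. They were selected on the measured difference between PFI-3 and DMSO at DM 48h, where they had the largest falls among genes called lower with a mean of at least 5 CPM (counts scaled to a common library size). Every DM 48h value of these 2 genes is therefore given below as a description, without a test, and so is every comparison of theirs that uses a DM 48h library. The study harvested cells while they proliferated in serum-rich growth medium (GM), and 24 h (DM 24h) or 48 h (DM 48h) after confluent cultures were moved to low horse serum with insulin, in which C2C12 cells fuse into myotubes. All cells received either the solvent DMSO or 50 uM PFI-3, an inhibitor of bromodomains in BRG1 and BRM, the ATPases of SWI/SNF chromatin-remodelling complexes, and in PB1. Exposure began 12 h before the harvest of GM cells, was also given as a 12 h pretreatment of DM cells, and was renewed in differentiation medium every 24 h. The 6 groups had 2 libraries each, A and B, which the design text calls biological duplicates, and no genetic change was made. A single line and a single dose were used.

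Total expected counts were between 12576374 and 13658352 per library, and 13499 to 14231 genes were listed in each. The 5 myoblast markers examined (Myod1, Myf5, Des, Cdh15 and Itga7) were all expressed. Of the 7 markers of other cell types, Adipoq, Bglap, Sp7, Ptprc and Pecam1 were below 1 CPM in every group and Plin1 was not listed. The seventh, the keratin gene Krt14, was highest in GM, at 8.18 CPM with DMSO and 6.42 CPM with PFI-3. Its GM libraries were uneven, at 4.55 (A) and 11.8 CPM (B) with DMSO and 4.15 and 8.69 CPM with PFI-3. Krt14 was at 4.07 CPM with DMSO and 0.8 CPM with PFI-3 at DM 24h, and at 1.35 and 0.782 CPM at DM 48h. Its part in the results below was not tested.

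R3hdml encodes a putative secreted protein of the CAP superfamily, to which the peptidase inhibitors Pi15 and Pi16 also belong, and it has been linked to satellite cells, the stem cells of skeletal muscle. Igfn1 encodes a long protein of immunoglobulin and fibronectin type III domains found in skeletal muscle at the Z disc, the structure that anchors the thin filaments of the sarcomere. During myogenic differentiation, transcription factors of the MyoD family bind E-boxes in muscle genes together with MEF2 proteins, and BRG1 and BRM complexes open chromatin at such sites.

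The counted R3hdml transcript lies on chr2:163492318-163502612 (GRCm38, plus strand) in 5 exons, with 759 coding bases. The counted Igfn1 transcript is much longer, with 27 exons on chr1:135953585-136006342 (minus strand) and 8547 coding bases. The 250 bases before the start of each counted transcript were read from RefSeq (GRCm38.p6), and both genes matched. The RefSeq spans of both genes reach further upstream, so the windows lie within them, and other possible starts were not examined. These windows are shown because regulators that bind E-boxes are among the genes examined below. E-boxes (CANNTG, the same on both strands) are in capitals, and each sequence is written 5' to 3' on the strand of its gene. The R3hdml window is chr2:163492068-163492317 and the Igfn1 window is chr1:136006343-136006592.
R3hdml: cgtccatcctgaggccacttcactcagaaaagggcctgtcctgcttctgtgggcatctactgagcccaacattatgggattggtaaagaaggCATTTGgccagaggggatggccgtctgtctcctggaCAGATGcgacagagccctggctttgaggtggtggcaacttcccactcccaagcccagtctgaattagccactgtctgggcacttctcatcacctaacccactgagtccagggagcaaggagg
Igfn1: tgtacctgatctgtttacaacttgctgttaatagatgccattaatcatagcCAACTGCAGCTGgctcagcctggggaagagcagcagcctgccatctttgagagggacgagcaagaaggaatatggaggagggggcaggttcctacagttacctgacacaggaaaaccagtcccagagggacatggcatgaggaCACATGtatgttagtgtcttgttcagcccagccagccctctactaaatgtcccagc
The R3hdml window held 2 E-boxes, CATTTG and CAGATG, which began 158 and 122 bases before the start. The Igfn1 window held 3, which began 199, 193 and 56 bases before the start, with CAGCTG as the middle one, and the first 2 adjoin without overlap. At least 1 E-box was found in 66.2% of 32851 RefSeq mouse promoter windows of this length, at least 2 in 31.8% and at least 3 in 12.2%. The CAGCTG form was in 13% of windows. No match to the MEF2 consensus (in 2.92% of windows) or to the MCAT element CATTCC (in 12.6%), each searched on both strands, was found in either window. These matches are descriptions of sequence, and binding was not measured.

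In proliferating cells both genes were at or near 0. R3hdml had 0 counts in all 4 GM libraries, and Igfn1 had 1 count in library A with DMSO and 0 in the other 3. A count of 0 allows up to 3 counts in a library, or 0.214 to 0.235 CPM in the GM libraries, and this limit covers counting error only. Expression of either gene in GM was thus not detectable at this depth, and no fold between PFI-3 and DMSO is given. With edgeR's quasi-likelihood test the adjusted p in GM was 1 for R3hdml and 0.51 for Igfn1, while 11.6% of the 12545 genes tested were called in either direction. A call here means an adjusted p under 0.05 over all genes tested. Igfn1 passed the filter on low counts only through the later libraries that selected it. Its test in GM thus depends on those libraries, and nothing is concluded from it.

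R3hdml was switched on within the first 24 h of differentiation and was nearly absent at that time in PFI-3-treated cells. At DM 24h it had 44 counts in library A and 44 in library B with DMSO, and 1 and 0 with PFI-3. The groups did not overlap, and the higher PFI-3 library held 1 read against 44 in its DMSO counterpart. As group means these were 3.45 ± 0.0581 CPM with DMSO and 0.038 ± 0.0538 CPM with PFI-3 (SD, n = 2). The DMSO level was 90.5 times the PFI-3 level, with a 95% exact counting interval from 15.8 to 3610 that reflects the single count. R3hdml fell by 6.18 on the log2 scale (SE 0.52, edgeR adjusted p 2.64e-05), and it was lower in both same-letter pairs. Of all genes, 11.4% were called lower and 12.2% higher at this time, and R3hdml ranked 3 of the 1433 called lower. The size rests on the single PFI-3 count: without PFI-3 library A the estimate was -8.49 and without PFI-3 library B it was -5.33, both called. These are bulk RNA measurements, so fewer expressing cells and less RNA per cell cannot be told apart.

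Igfn1, in contrast to its state a day later, was barely detected at DM 24h with either treatment. It had 1 and 5 counts with DMSO and 1 and 6 with PFI-3, so that the groups overlapped. The means were 0.233 ± 0.218 CPM and 0.267 ± 0.27 CPM (SD, n = 2). No difference was detected (log2 difference 0.18, SE 0.86, edgeR adjusted p 0.904). Igfn1 passed the filter on low counts only through the later libraries that selected it, so this test depends on them. It had no value when only the libraries compared were fitted, and nothing is concluded from the test. The counting interval of the ratio of DMSO to PFI-3, from 0.245 to 3.06, leaves room for a several-fold change in either direction. The direction depended on single libraries, with -0.52 without DMSO library A and -1.51 without PFI-3 library B. Whether the response at DM 24h differed between R3hdml and Igfn1 was not tested.

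The rise from GM to DM 24h was then compared within each treatment. These comparisons share the DM 24h libraries with those above and are not independent of them. The low-count filter kept Igfn1 only through the DM 48h libraries that selected it. Its tests here, in GM and at DM 24h thus depend on those libraries. With DMSO, R3hdml rose at least 15.1-fold from GM (edgeR adjusted p 2.51e-06), taking 3 counts per library as the GM level, where 30.6% of genes were called higher. With PFI-3 its 1 and 0 counts were not called against GM (adjusted p 0.293, edgeR), where 32.1% were called higher. Igfn1 was not called with DMSO (6 counts against 1 over both libraries, edgeR adjusted p 0.134). It was called higher with PFI-3 (7 counts against 0, edgeR adjusted p 0.0274), but not once GM library A (adjusted p 0.0797), GM library B (0.0802) or DM 24h library B (0.222) was left out. The difference of the PFI-3 effect between DM 24h and GM was called for 3.37% of genes. For R3hdml it could not be estimated, because all GM libraries were at 0, and for Igfn1 it was 2.48 (SE 2.23, edgeR adjusted p 0.631).

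By DM 48h both genes were well expressed in DMSO-treated cells, and both were far lower with PFI-3. R3hdml had 466 and 428 counts with DMSO and 18 and 22 with PFI-3. Igfn1 had 669 and 707 counts with DMSO and 52 and 61 with PFI-3. For both genes the DMSO and PFI-3 libraries did not overlap, and duplicates lay close together, both of which the selection favoured. R3hdml went from 36.5 ± 2.04 CPM with DMSO to 1.56 ± 0.218 CPM with PFI-3, and Igfn1 from 56.1 ± 2.42 to 4.42 ± 0.487 CPM (SD, n = 2). PFI-3 cells held 4.29% of the DMSO level of R3hdml and 7.87% of that of Igfn1. As DMSO over PFI-3 these are ratios of 23.3 (counting interval 17.0 to 32.9) and 12.7 (10.5 to 15.5). By letter, the ratio was 26.9 in A and 20.4 in B for R3hdml, and 13.4 and 12.1 for Igfn1. Of all genes, 14.0% were called lower and 13.4% higher at DM 48h. These values chose the members, so nothing is read from that comparison.

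**Figure D1:**
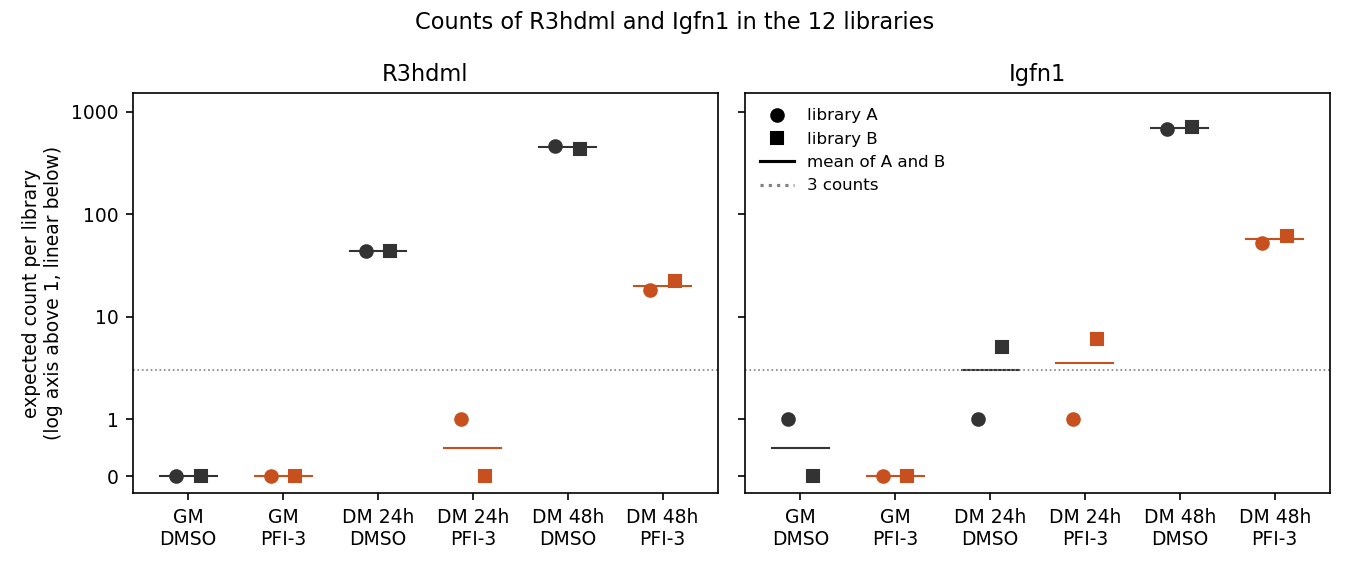
Expected counts of R3hdml (left) and Igfn1 (right) in each library, by stage and treatment. Points are libraries A and B, short lines are their means, and the dotted line marks 3 counts, with an axis that is logarithmic above 1 and linear below. R3hdml separates by treatment at DM 24h (44 and 44 against 1 and 0), whereas the Igfn1 groups overlap there and separate at DM 48h. The DM 48h values are those that selected both genes.

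The fitted log2 changes at DM 48h were -4.53 for R3hdml and -3.66 for Igfn1. Just outside the pair stood Cilp, a cartilage matrix gene, at -3.60, Mfap4, a gene of microfibril-associated protein, at -3.33 and Col25a1, a membrane collagen, at -3.31. Igfn1 and Cilp thus differed by less than 1 SE (0.22 for Igfn1), and the border between them is not a gap. Without the 5 CPM limit, the members ranked 9 and 14 of 1756 genes called lower. At DM 24h, Cilp fell by 1.57 (edgeR adjusted p 0.000588) and Mfap4 by 1.22 (edgeR adjusted p 0.0298), and Col25a1 was at -1.28 without a call (edgeR adjusted p 0.0851). The call of Mfap4 was lost without any 1 of the 4 libraries compared (edgeR adjusted p 0.0527 to 0.185).

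The time course of the pair differed in DMSO-treated cells. R3hdml at DM 24h already stood at 9.46% of its DM 48h level, whereas Igfn1 stood at 0.415%. Between these times the R3hdml level rose 10.6-fold (counting interval 8.49 to 13.3) and the Igfn1 level 239-fold (109 to 652). Among 7691 genes with at least 20 CPM at DM 48h with DMSO, the rise of Igfn1 was the largest and that of R3hdml ranked 68. The only other gene that passed 20 CPM at DM 48h from under 0.5 CPM both in GM and at DM 24h was Tcap, which encodes the titin cap protein of the Z disc. Tcap went from 20.7 ± 1.24 CPM with DMSO to 3.09 ± 0.726 CPM with PFI-3 at DM 48h (SD, n = 2). Casq1, described below, just missed these limits, at 0.115 CPM in GM, 0.392 CPM at DM 24h and 19.98 CPM at DM 48h with DMSO. The limits, and with them Tcap, were chosen after the values were seen.

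PFI-3-treated cells also raised both genes between DM 24h and DM 48h, to lower levels. R3hdml went from 1 count to 40 over both libraries, a ratio of 41.1 with an interval from 6.96 to 1660, and Igfn1 from 7 to 113, a ratio of 16.6 (7.78 to 42.2). PFI-3 cells at DM 48h were then set beside DMSO cells at DM 24h. For R3hdml the earlier DMSO level was the higher one, by 2.2 times (1.5 to 3.29). For Igfn1 the order was the opposite, with PFI-3 cells at DM 48h 18.8 times above DMSO cells at DM 24h (8.38 to 52.3). The level of R3hdml thus followed the order DM 48h DMSO, DM 24h DMSO, DM 48h PFI-3 and then the remaining groups at or near 0. For Igfn1 the order was DM 48h DMSO, DM 48h PFI-3 and then the other 4 groups, which held 0 to 6 counts per library.

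Per unit of transcript length R3hdml was the more abundant transcript, although Igfn1 gave more reads. On the deposited FPKM scale (fragments scaled by transcript length and depth), levels at DM 48h with DMSO were 35.74 and 32.86 for R3hdml and 5.83 and 6.20 for Igfn1. With PFI-3 they were 1.41 and 1.72 for R3hdml and 0.46 and 0.54 for Igfn1. By FPKM at DM 48h with DMSO, R3hdml ranked 2367 and Igfn1 8074 of 14741 listed genes. With PFI-3 the ranks were 10607 and 11661 of 14747, with 28.1% and 20.9% of listed genes at or below them, against 83.9% and 45.2% with DMSO. Outside the DM 48h libraries with DMSO, the counts of both genes showed no fraction of a read. The larger counts in those libraries were kept only as whole numbers, so a fraction could not be seen there.

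The other genes of each protein family were read from lists. Of 14 other CAP superfamily genes, 8 were listed and 4 passed the low-count filter. At DM 24h 2 of the 4 were called lower and none higher, against 11.4% of all genes called lower. Their median log2 change was -0.29, against -0.001 over all genes tested. At DM 48h 2 were again called lower and none higher (median -0.03, all genes 0.001), against 14.0% of all genes called lower. The called CAP genes were Pi16, a putative peptidase inhibitor, and Glipr2, which encodes an intracellular Golgi-associated CAP protein. Pi16 went from 6.0 ± 0.6 to 3.5 ± 0.652 CPM at DM 24h (log2 -0.77, edgeR adjusted p 0.0378) and from 7.1 ± 1.07 to 1.06 ± 0.274 CPM at DM 48h (log2 -2.74, edgeR adjusted p 3.18e-05). Glipr2 was at -0.39 and -0.40 with edgeR adjusted p 0.0495 and 0.0413. Leaving out any 1 of the compared libraries ended both DM 24h calls (edgeR adjusted p 0.0762 to 0.255 for Pi16) and the DM 48h call of Glipr2 (0.0902 to 0.214), and the DM 48h call of Pi16 held. Pi15 and Glipr1 were not called at either time.

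Of 17 other muscle proteins with immunoglobulin or fibronectin type III domains, 15 were tested, and most were lower with PFI-3. At DM 24h 10 were called lower, 1 higher and 4 not (median -1.23), against 11.4% of all genes called lower. At DM 48h 13 were called lower, 1 higher and 1 not (median -0.53), against 14.0%. With DMSO, 13 of the 15 were called higher and none lower from GM to DM 24h, against 30.6% of all genes called higher. Mybpc1, a myosin-binding protein of slow muscle, went from 4.58 ± 0.0219 to 0.952 ± 0.0554 CPM at DM 24h (log2 -2.26, edgeR adjusted p 8.69e-05) and from 44.1 ± 3.41 to 12.4 ± 0.0292 CPM at DM 48h. Ttn, the giant spring of the sarcomere, fell by 1.41 and 0.50 at the 2 times (edgeR adjusted p 9.28e-07 and 0.000832). Mypn, a titin-binding Z disc protein, fell by 1.97 and 1.36 (edgeR adjusted p 0.000495 and 4.08e-05). The gene called higher was Mylk, which encodes the myosin light chain kinase of smooth muscle, at 0.69 and 0.47 (edgeR adjusted p 0.00732 and 0.0453). Its DM 24h call was lost without DMSO library A, DMSO library B or PFI-3 library A (edgeR adjusted p 0.0502, 0.0776 and 0.0757), and its DM 48h call without any 1 of the 4 libraries (0.133 to 0.209).

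Within that family, Myot and Mybpc2 had the late profile of Igfn1. Myot, which encodes the Z disc protein myotilin, had 0 counts in both DMSO libraries at DM 24h, 101 and 107 with DMSO at DM 48h, and 3 and 1 with PFI-3 at DM 48h (edgeR adjusted p 1.92e-05 for the DM 48h difference). Its mean over all libraries was under the 5 CPM limit that the selection used. Mybpc2, a myosin-binding protein of fast muscle, was at 0.0387 CPM with DMSO at DM 24h and went from 6.0 CPM with DMSO to 2.11 CPM with PFI-3 at DM 48h (log2 -1.50, edgeR adjusted p 0.0043), a call lost without PFI-3 library A (0.0624). Whether the changes of Igfn1 and of these genes differ was not tested.

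**Figure D2:**
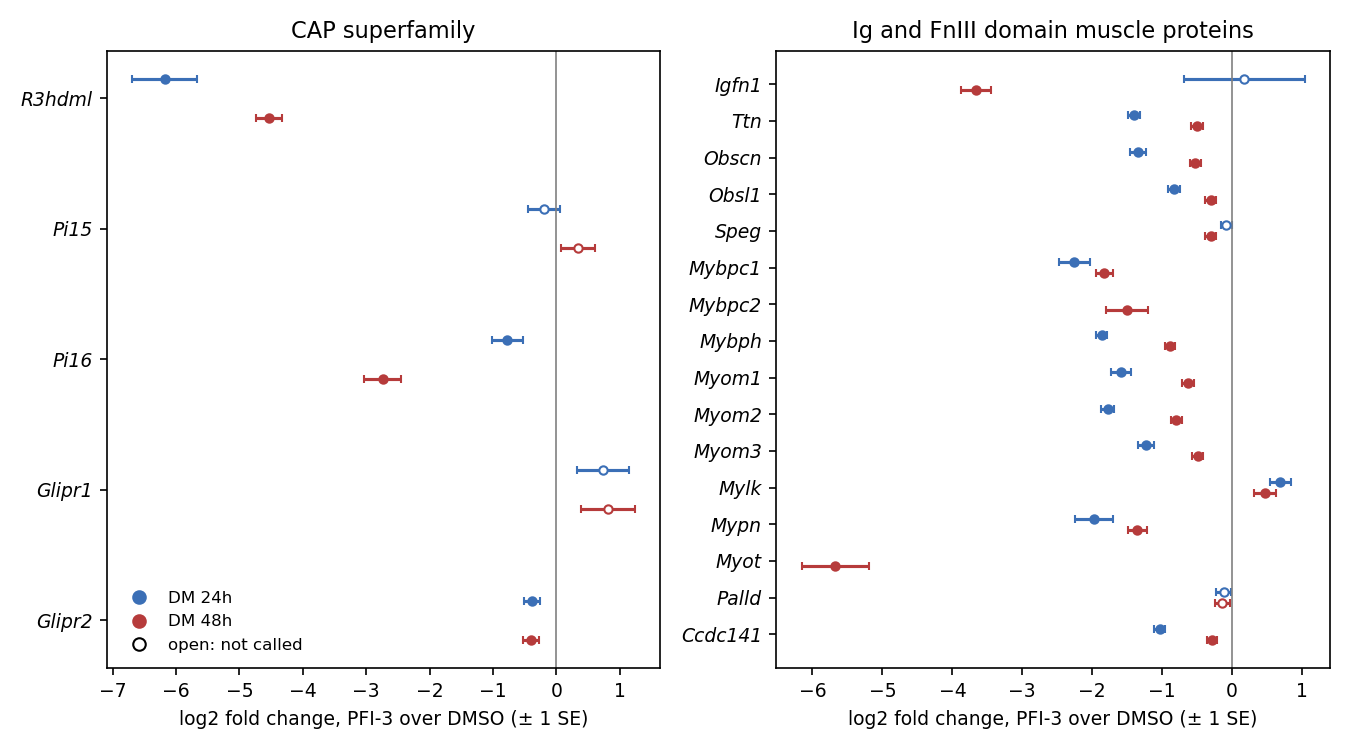
Log2 fold change of PFI-3 over DMSO (± 1 SE) at DM 24h (blue) and DM 48h (red) for tested CAP superfamily genes (left) and muscle proteins with immunoglobulin or fibronectin type III domains (right). Filled points passed an adjusted p of 0.05 in edgeR, changes between groups with 3 counts or fewer each are not drawn, and the DM 48h points of R3hdml and Igfn1 are those that selected them. Igfn1 lies near 0 at DM 24h with a wide error, while Mybpc1 and Mypn are already lower.

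Proteins reported to bind Igfn1 behaved unequally. Of 4 such genes 3 were tested. At DM 24h 2 of the 3 were called lower, against 11.4% of all genes, and at DM 48h 1, against 14.0%. Ky, a Z disc protein related to transglutaminases, fell by 1.28 at the earlier and 1.40 at the later time (edgeR adjusted p 9.97e-05 and 4.08e-06). Cobl, an actin nucleator, fell by 0.79 at DM 24h (edgeR adjusted p 0.00496) and was at -0.34 without a call at DM 48h (edgeR adjusted p 0.117). Flnc, the muscle filamin, was not called at either time, and Eef1a2 was at 0 in both DM stages.

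The myogenic regulators were lower in part. Of 10 genes, 6 were called lower and 0 higher at DM 24h (median -0.37), against 11.4% of all genes called lower. At DM 48h 6 were called lower and 1, Mef2a, higher (median -0.36), against 14.0% of all genes lower and 13.4% higher. Mef2c, a MEF2 factor of late differentiation, had a profile between the pair. It was at 1.34 ± 0.576 CPM with DMSO and 0.305 ± 0.108 CPM with PFI-3 at DM 24h (edgeR adjusted p 0.0227), and at 72.6 ± 1.05 and 13.3 ± 0.142 CPM at DM 48h (log2 -2.45, edgeR adjusted p 2.35e-06). The DM 24h call of Mef2c, on 34 and 8 counts, was lost without DMSO library A, PFI-3 library A or PFI-3 library B (edgeR adjusted p 0.187, 0.153 and 0.0779). The DM 48h call of Mef2a was lost without any 1 of the 4 libraries (0.143 to 0.197). Myog, the differentiation factor myogenin, fell by 1.05 and 0.62 (edgeR adjusted p 2.4e-06 and 8.37e-05). Of the 3 genes whose proteins PFI-3 binds, 1 was called at each stage, always higher. This was Smarca2 in GM and at DM 24h and Smarca4 at DM 48h. Over all genes, 11.6% were called in either direction in GM, and 12.2% and 13.4% higher at DM 24h and DM 48h. The part of any of these regulators in the levels of R3hdml and Igfn1 was not tested.

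The 5 protein-coding genes on each side of each member were examined next. Around R3hdml, 8 of 10 were tested. At DM 24h 3 were called lower and none higher (median -0.05), namely Jph2, Fitm2 and Pkig, against 11.4% of all genes called lower. Jph2, a junctophilin of the muscle triad, fell by 0.51 and Pkig, a protein kinase A inhibitor, by 0.74 (edgeR adjusted p 0.00456 and 9.25e-05). Fitm2, a lipid droplet protein, was at -0.45 (edgeR adjusted p 0.0309), a call lost without any 1 of the 4 libraries compared (0.0829 to 0.182). At DM 48h Pkig and Serinc3 were called lower and Tox2 and Ada higher (median -0.03), against 14.0% lower and 13.4% higher over all genes. The calls of Tox2 and Ada were lost without any 1 of the 4 libraries compared (edgeR adjusted p 0.122 to 0.222 and 0.0518 to 0.162). The nearest gene, Hnf4a, which lies 4.2 kb beyond R3hdml, had at most 2 counts over both libraries of any group.

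Around Igfn1, 8 of 10 neighbours were tested and several are muscle genes themselves. At DM 24h 4 were called lower and none higher (median -1.26), against 11.4% of all genes called lower. At DM 48h 6 were called lower and none higher (median -0.68), against 14.0%. The 4 lower at both times were the troponin genes Tnni1 and Tnnt2, the desmosomal plakophilin Pkp1 and the calcium channel Cacna1s. Tnni1 went from 133 ± 7.51 to 38.8 ± 0.386 CPM at DM 24h (log2 -1.78, edgeR adjusted p 6.88e-08), a stage at which Igfn1 was barely detected. Cacna1s fell by 2.34 and 0.88 at these times (edgeR adjusted p 2.11e-06 and 6.33e-05). Pkp1 fell by 1.54 and 1.70 (edgeR adjusted p 3.17e-05 and 7.52e-06). Tmem9, whose span lies within the longer RefSeq span of the Igfn1 gene but outside its counted transcript, fell by 0.59 at DM 48h (edgeR adjusted p 0.00102).

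**Figure D3:**
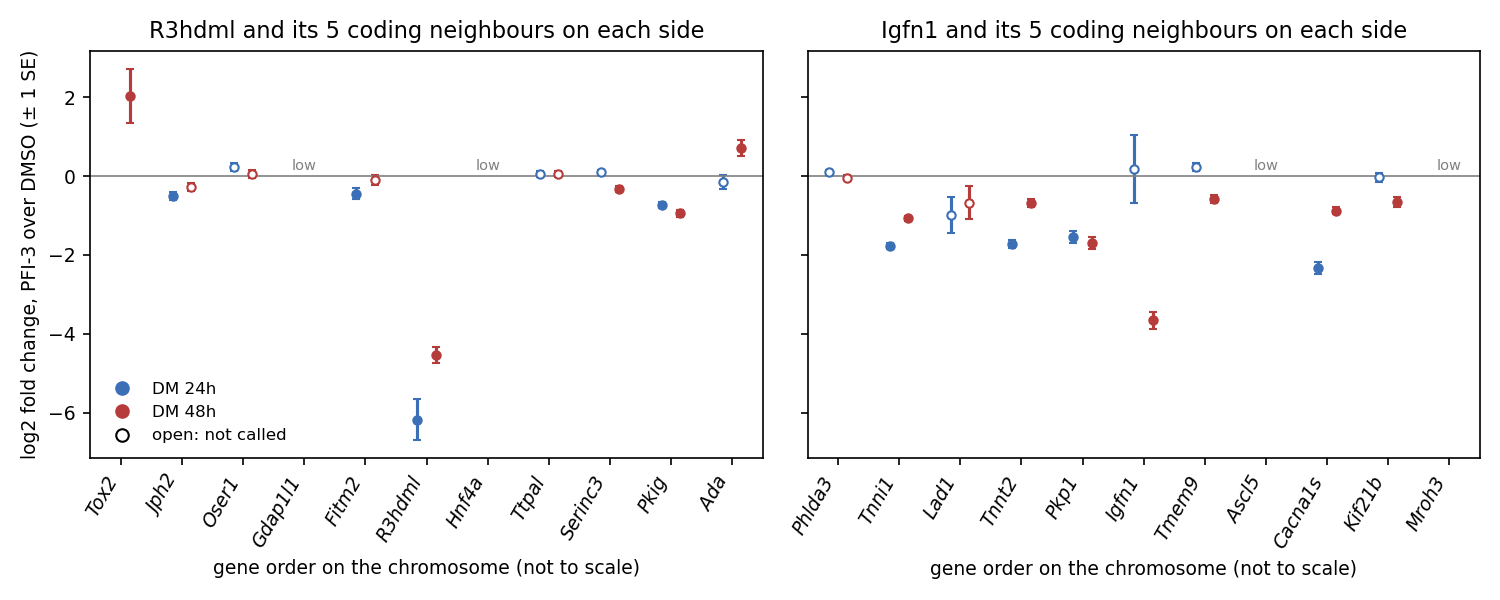
Log2 fold change of PFI-3 over DMSO (± 1 SE) for R3hdml (left), Igfn1 (right) and the 5 protein-coding neighbours on each side, in gene order and not to scale, at DM 24h (blue) and DM 48h (red). Filled points passed an adjusted p of 0.05 in edgeR, "low" marks genes that did not pass the low-count filter, and the DM 48h points of R3hdml and Igfn1 are those that selected them. Most neighbours of R3hdml lie near 0, while Tnni1, Tnnt2, Pkp1 and Cacna1s beside Igfn1 are lower at both times.

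The genes most like each member were ranked by Pearson's r of log2 CPM over the 12 libraries, as a description, since the points share libraries and stages and the DM 48h values that selected the members. For R3hdml these were Gpx7 (r = 0.987), Cbx5 (0.986), Psme4 (0.981), Tubb2b (0.978) and Spsb1 (0.975). Gpx7, which encodes a peroxidase of the endoplasmic reticulum, was the one that shared the 0 counts of R3hdml in GM, with 7 and 4 counts at DM 24h with DMSO, 0 and 0 with PFI-3, 23 and 26 at DM 48h with DMSO and 2 and 4 with PFI-3. The other 4 were expressed at every stage and changed by smaller steps in the same order, such as Cbx5, the gene of heterochromatin protein HP1 alpha, at 677 and 470 CPM at DM 24h and 852 and 580 CPM at DM 48h.

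For Igfn1 the leading genes were Tmem189 (r = 0.992), Casq1 (0.987), Kcnj11 (0.985), Krt31 (0.983) and Tstd2 (0.982). Casq1, the calcium-binding calsequestrin of the sarcoplasmic reticulum, had 5 and 5 counts with DMSO and 2 and 7 with PFI-3 at DM 24h. At DM 48h it had 239 and 251 counts with DMSO and 59 and 56 with PFI-3. Kcnj11, a potassium channel subunit, and Krt31, a hair keratin, were at 3 counts or fewer in every library before DM 48h. R3hdml and Igfn1 correlated with each other at r = 0.852 and were not among each other's nearest genes, since Igfn1 ranked 740 of 12544 for R3hdml and R3hdml ranked 895 for Igfn1.

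**Figure D4:**
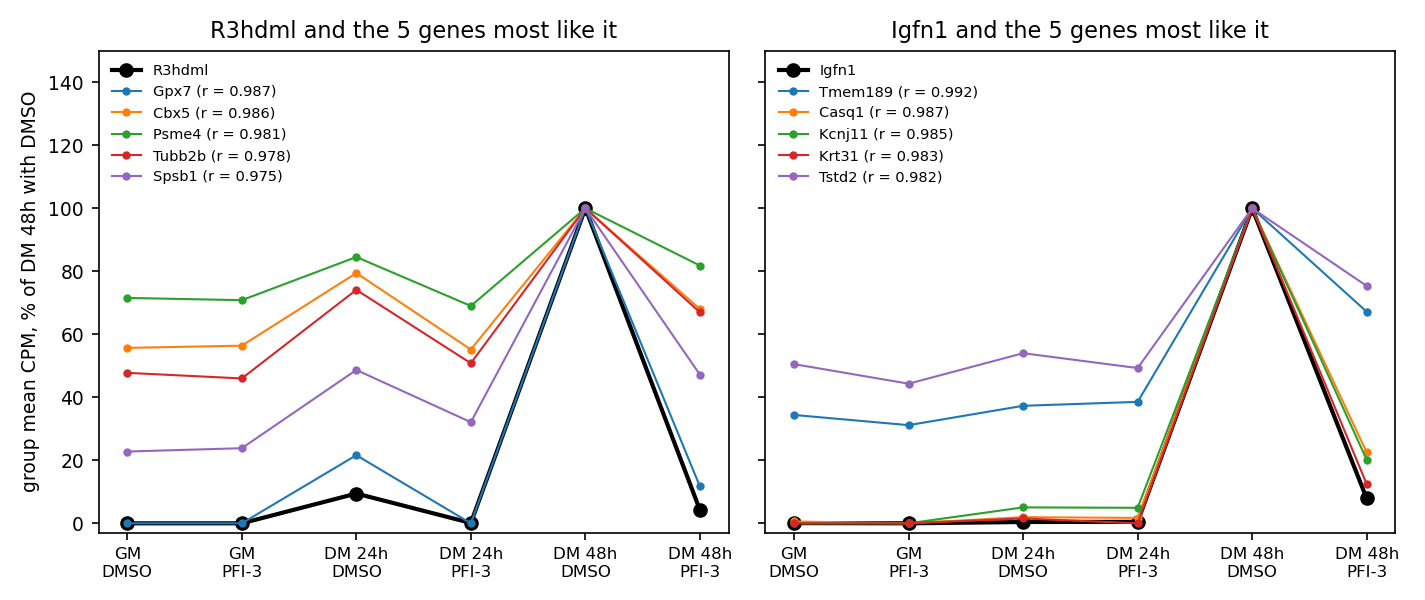
Group mean CPM of R3hdml (left) and Igfn1 (right), in black, with the 5 genes of highest Pearson's r over 12 libraries, each as a percent of its own DM 48h DMSO mean. Lines join the 6 groups for reading only. R3hdml stands at 9.46% of its DM 48h level at DM 24h with DMSO, whereas Igfn1 stands near 0 until DM 48h.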

How the data were processed

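RNA-seq of 12 C2C12 libraries was analysed from 1 table per library, with replicates not pooled. The authors deposited an expected count and an FPKM value (fragments scaled by transcript length and depth) per gene, per the file headers. The submitters' processing notes name the build mm10 and the tools HISAT, StringTie, Cufflinks, Bowtie, RSEM and DESeq2, without roles or versions, so which of them made these values is not given in the sources used here. Between 93.3% and 93.7% of expected counts per library were whole numbers. A gene missing from a table was taken as 0. The lowest FPKM listed was 0.01, which is what 1 read of Igfn1 gives, and 1 read of R3hdml gives 0.08.

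Groups and replicate letters came from the sample titles. Expected counts were rounded and tested with edgeR 4.0.16 (R 4.3.3, quasi-likelihood, TMM scaling, filterByExpr), in 1 model of 6 groups over 12 libraries, with Benjamini-Hochberg adjustment over the 12545 genes kept, both members among them. The filter can only have kept each member through its DM libraries. For Igfn1 these were the DM 48h libraries that selected it, since no earlier library held more than 6 counts. Fitted on only the libraries compared, Igfn1 had no value at the earlier stages. Its tests at those stages therefore depend on the selecting libraries, which also enter the model. CPM values use TMM-adjusted totals. Ratios of summed counts carry exact conditional 95% intervals, which cover counting error only, since reads without molecular identifiers are not independent molecules. The edgeR p-values of this model weigh a difference against a spread between duplicates that was estimated over all 6 groups and moderated across genes. They do not rest on the compared duplicates alone.

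Alternatives were DESeq2-style size factors, DESeq2 1.42.0, no filter, a mean of at least 10 counts, limma 3.58.1 on log2(FPKM + 1) and log2(FPKM + 0.1), only the libraries compared, a replicate block, and each library left out in turn. Their use on list and neighbour genes was added after seeing the data. Same-letter libraries deviated together with correlations of 0.395 (GM), 0.013 (DM 24h) and 0.03 (DM 48h), and the labels do not say what a letter shares. On simulated DM 24h counts with 200 changed genes, edgeR recovered 78% of 2-fold and 94% of 4-fold changes, and 8% of its 187 calls were false. The simulation took the spread of each gene from the same fit and changed far fewer genes than the 2966 called at DM 24h. Its rates therefore need not hold for the measured comparison.

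Named genes were the members, the 3 next falls, the 5 most alike genes per member, list genes with at least 1 CPM in some group and the 5 coding neighbours per side. The members and lists were chosen with earlier results of these data known. Gene models came from GENCODE and neighbours and promoters from RefSeq, both on GRCm38, the assembly that mm10 names.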

Additional observations from a re-analysis of the deposited data

How the results depend on the processing

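For the 7 tested results of the members, 82 of 91 values under the alternatives kept their direction and their side of the threshold. That total includes the R3hdml difference in effect between DM 24h and GM, with 17 of the 91 values and 15 of the 82. Its edgeR non-calls were fixed by the 0 counts in GM, so they say nothing of stability. The total also includes the Igfn1 results before DM 48h, where no library held more than 6 counts. Non-calls at such counts say little of stability either, such as all 11 values of its rise from GM with DMSO and all 15 of its difference in effect. The DM 48h falls that selected the members, which are untested, were below 0 in all 26 alternative values, from -4.68 to -3.78 for R3hdml and from -3.78 to -2.23 for Igfn1. The DM 24h fall of R3hdml was called in all 13, with a highest adjusted p of 0.000618 and log2 values from -8.49 to -5.33 when each library was left out, and -2.08 and -4.70 with limma on log2(FPKM + 1) and log2(FPKM + 0.1). Its rise from GM with DMSO was also called in all 13. With the replicate block, the DM 24h change was -6.18 (edgeR adjusted p 5.62e-05) for R3hdml and 0.18 (0.903) for Igfn1, and no call of a member changed. Same-letter libraries deviated together in GM (correlation 0.395) but hardly at DM 24h (0.013), and what a letter shares is not labelled. The Igfn1 change at DM 24h ran from -1.51 to 1.64 without single libraries, reversing to -0.52 without DMSO library A and to -1.51 without PFI-3 library B, and was never called. Its rise from GM with PFI-3 was 0.04 and 0.36 with limma (adjusted p 0.628 and 0.24), and 3.15 to 5.6 without single libraries (edgeR adjusted p 0.0108 to 0.222). The R3hdml difference in effect between DM 24h and GM was -2.08 and -4.70 with limma and was then called (adjusted p 1.92e-05 and 0.000415), a unit in which a GM level of 0 has a value.

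Counts of called genes moved most. When the libraries compared were fitted alone, the GM count went from 1456 to 32 and with the replicate block as well to 741, the DM 24h count from 2966 to 5583 and 5719, and the count for the difference between them from 423 to 79 and 101. Without single libraries these counts ran from 1190 to 2734, from 1320 to 1469 and from 92 to 995. No fold was computed under the alternatives for members with 3 counts or fewer in every library compared. The number called lower at DM 24h and DM 48h ranged from 0 to 2 and from 1 to 2 among CAP genes, from 10 to 11 and from 10 to 14 among the immunoglobulin and fibronectin proteins, from 2 to 3 and from 1 to 2 among partners, and from 4 to 7 and from 3 to 7 among regulators. Calls kept in fewer than 10 alternatives included those of Mylk (9 of 13 at DM 24h, 8 of 13 at DM 48h), Fitm2 (9 of 13), Ada (8 of 13) and Tox2 (5 of 12). Depth limits Igfn1 before DM 48h, where no library held more than 6 counts.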
